A study of Mus musculus with 6 samples.

Results

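The FoxO transcription factors and the ubiquitin ligases of the muscle atrophy programme were followed in left ventricular tissue of mice after ethanol feeding. The set holds 10 genes of the 55487 in the files, chosen by symbol: the factors Foxo1, Foxo3 and Foxo4, the ligases Fbxo32, Trim63, Trim55, Fbxo30, Fbxo40 and Cblb, and the growth inhibitor Mstn. Each of the 10 symbols matched 1 row. The samples are 6 bulk RNA libraries from the left ventricle of 8-week-old male wildtype C57BL/6 mice, 3 in each group. ET mice were fed ethanol at 5% of the diet over 10 days, followed by 1 gavage of ethanol. CONT mice had an isocaloric diet, then maltose-dextrin by gavage. Collection followed the gavage by 9 h. Nothing in the labels ties a library to its own mouse, and the p-values therefore describe variation among the libraries, some of which may be technical.

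FoxO factors switch on genes of protein breakdown and autophagy when insulin and IGF signalling is low. AKT phosphorylates them in the fed state and holds them outside the nucleus. Fbxo32 (atrogin-1, also MAFbx) and Trim63 (MuRF1) are the muscle ligases best known as FoxO targets, and glucocorticoids raise both in wasting muscle. In the heart, these ligases take part in the turnover of sarcomere proteins and in limiting or reversing growth. Phosphorylation and nuclear location of the FoxO proteins, through which AKT acts on them, are not read by RNA levels.

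Deposited totals ran from 28838386 to 37762233 expected counts per library, and 15727 genes were tested. The libraries were split into 2 sets, each with libraries of both groups, at the midpoint of the effective length of 1 gene, Myh6. Such a rule always gives 2 sets. Effective length is the length that expected count and FPKM imply, and it moves with the transcripts that reads are assigned to. That of Myh6 was 1309 to 1365 bases in CONT replicates 1 and 2 and ET replicate 1 (set 1). It was 2061 to 2370 bases in CONT replicate 3 and ET replicates 2 and 3 (set 2). Over 9387 genes with a mean count of at least 200, the median ratio of set 2 to set 1 was 1 (95th percentile 1.149). The labels name no batch, so what the sets stand for is not known. ET replicate 1 and CONT replicate 3 also stood apart in 8 atrial markers (7 higher in the ET mean, none at 0 in all libraries), whose summed TPM was 14570 and 2150 against 86.9 to 496 in the other libraries. ET replicate 1 further had the highest sums of 8 fibroblast markers (1007 TPM against 255 to 369) and of 8 macrophage markers (377 against 125 to 148), and in both lists all 8 were higher in the ET mean. The 10 cardiomyocyte markers, which define the tissue, summed to 49370 to 52080 TPM in CONT and to 36530 to 46210 in ET, and 3 of the 10 were higher in the ET mean. In bulk tissue, fewer cells of a type and less RNA per cell cannot be told apart. The part of the sets and of these markers in the results on the ligases was not tested beyond the values given with them.

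Upstream sequence is shown for Trim63 because it was the 1 gene with a FoxO match among those with a window. RefSeq promoter windows (GRCm38.p6) were found for 7 of the 10 genes, and the 250 bases before the transcription start were searched on both strands. The letters searched were GTAAACA and CAAAACA for FoxO factors, AGAACA for a glucocorticoid receptor half-site, GTCTAG for SMAD factors and CAGCTG for MyoD-type E-boxes. Capitals mark all matches in the windows of Trim63 (chr4:134314870-134315119, plus strand) and of the first start of Fbxo40 (chr16:36990468-36990717, minus strand), shown as a ligase with matches of another kind.
Trim63: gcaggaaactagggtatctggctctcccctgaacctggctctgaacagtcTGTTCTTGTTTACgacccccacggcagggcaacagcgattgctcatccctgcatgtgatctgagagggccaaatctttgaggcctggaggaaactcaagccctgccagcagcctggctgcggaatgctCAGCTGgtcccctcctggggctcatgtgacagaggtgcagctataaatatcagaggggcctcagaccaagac
Fbxo40: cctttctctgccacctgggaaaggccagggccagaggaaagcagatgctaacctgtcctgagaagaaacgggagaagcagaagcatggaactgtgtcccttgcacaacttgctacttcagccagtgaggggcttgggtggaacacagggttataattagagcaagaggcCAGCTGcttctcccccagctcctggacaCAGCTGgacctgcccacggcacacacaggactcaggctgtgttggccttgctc

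In the Trim63 window the glucocorticoid half-site, read on the minus strand, covered positions -200 to -195 and the FoxO core, also on the minus strand, covered -194 to -188, counted from the start. The 2 matches touch and do not overlap, and form the run TGTTCTTGTTTAC. The FoxO core was in 3.17% of 32851 such windows, the half-site in 16.1%, both anywhere in 0.691%, and this run of 13 letters, searched for after the match was seen, in 1 window, that of Trim63. An E-box stood at -72 to -67 of Trim63, and the first Fbxo40 window held 2 E-boxes, at -81 to -76 and -53 to -48, against 13.0% of all windows with any. A second start of Fbxo40 had a half-site at -176 to -171 and an E-box at -89 to -84. CAAAACA (in 5.56% of all windows) and GTCTAG (in 7.11%) had no match in the windows found, and the windows of Foxo1, Foxo3, Fbxo30, Cblb and Mstn held none of the 5 motifs. Windows were set from RefSeq starts. By the GENCODE gene bounds, those of Fbxo30 and Cblb lie inside the gene and that of Foxo3 partly so. Sequence upstream of the GENCODE starts of Fbxo30 and Cblb was therefore not searched. A match is a run of letters and does not show that a factor was bound.

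Per unit of length, Trim63 was the most abundant RNA of the set. Values in this paragraph are TPM, which the authors scaled for gene length, as mean ± SD over all 6 libraries. Trim63 was at 97.2 ± 51.6, above each library of the next gene in the order. Fbxo40, a muscle-restricted F-box protein that targets the insulin receptor substrate IRS1, was at 24.1 ± 7.29, and Fbxo32 was at 18.4 ± 11. Trim55, the paralog of Trim63 also called MuRF2, followed at 15.0 ± 4.93 and Foxo4 at 14.3 ± 2.95. Foxo3 was at 11.9 ± 5.13. These 5 genes, from Fbxo40 to Foxo3, overlapped their neighbours in the order, so that their ranks are not separated by the spread between libraries. Fbxo30 (MUSA1, an F-box ligase that BMP signalling holds down) was at 3.34 ± 1.201, Foxo1 at 2.71 ± 0.632 and Cblb at 2.52 ± 0.771, again with overlap, and all 3 lay below each Foxo3 library. Mstn, which encodes myostatin, the secreted inhibitor of muscle growth, came last at 0.0817 ± 0.0694.

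For Mstn the rounded counts were 3, 5 and 19 in the CONT libraries and 6, 4 and 4 in the ET libraries, too few for the test. CONT replicate 3 was its highest library, and CONT replicates 1 and 2 were within 3 counts of every ET library. The remaining 9 genes passed the filter on low counts. Their places on the GRCm38 build (GENCODE vM21) are chromosome 3 from 52268336 to 52353221 for Foxo1 (ENSMUSG00000044167, plus strand) and chromosome 10 from 42181841 to 42276755 for Foxo3 (ENSMUSG00000048756, minus). Foxo4 (ENSMUSG00000042903, plus) lies on chromosome X from 101254528 to 101260873. Fbxo32 (ENSMUSG00000022358, minus) spans 58175879 to 58214932 of chromosome 15 and Trim63 (ENSMUSG00000028834, plus) spans 134315120 to 134329629 of chromosome 4. All 10 are protein-coding, and values are per gene, with exons and UTRs summed over its transcripts. In 8 of the 10 genes no 75-base word of their transcripts occurs in another gene, Trim63 and Trim55 included. The exceptions were Foxo1, with 6.13% of its words in Gm20402, and Fbxo32, with 1.65% in Gm15943, both on the opposite strand.

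Most of the 9 tested genes had higher mean levels in ET, with Fbxo32 and Trim63 furthest apart, while Trim55 and Fbxo40 had nearly the same mean in both groups. None of the 9 passed edgeR's quasi-likelihood test, in which 0% of all genes passed. The lowest Benjamini-Hochberg adjusted p among the 9 was 0.515, for Cblb. At an unadjusted p under 0.05 there were 2, Fbxo32 and Cblb, both higher. Of all genes, 8.65% were under that level in either direction and 4.19% were higher. DESeq2 called 0 of the 9 (of all genes it called 1.2%, 0.683% higher), and limma-voom also called 0 and left 2 under an unadjusted p of 0.05 (8.12% of all genes). The log2 fold change was above 0 in 8 of 9 genes, against 51.9% of all genes, and its median was 0.41, against 0.014 over all genes. Foxo1 and Cblb were higher in each ET library than in any CONT library by CPM, a pattern found in 6.89% of all genes, and none of the 9 was lower in each ET library (8.36% of all genes).

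**Figure D1:**
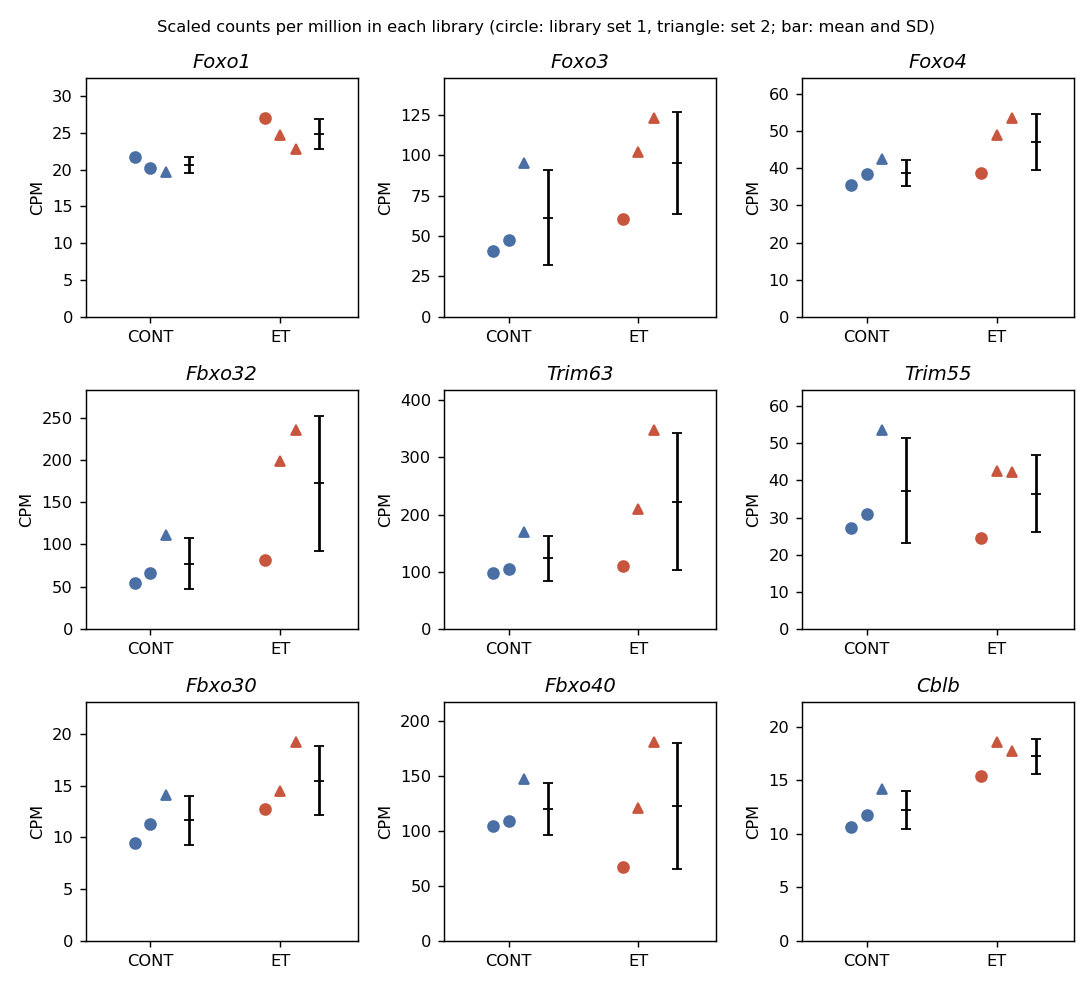
CPM scaled with TMM factors (vertical axis from 0) of the 9 tested genes in each library, with CONT in blue and ET in red, circles for library set 1, triangles for set 2, and bars for the mean and SD of 3 libraries. Foxo1 and Cblb show ET libraries all above CONT, while in Fbxo32 and Trim63 ET replicate 1 lies below CONT replicate 3.

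Among the factors, Foxo1, which is known as a main FoxO factor of insulin signalling, had 21.8, 20.3 and 19.7 CPM in CONT replicates 1 to 3. In ET replicates 1 to 3 it had 27.0, 24.7 and 22.9 CPM. The ET libraries lay above each CONT library, and ET replicate 1, which stood apart in fibroblast and atrial markers, was the highest. Within set 2, which does not hold that library, the log2 ratio was 0.27. The log2 fold change was 0.27 ± 0.12 (SE; adjusted p 0.574, edgeR). Of its exon bases 7.78% lie opposite Gm20402, and strand use is not given in the sources used here.

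Foxo3, the factor best known for driving atrogin-1 and autophagy genes in muscle, had 41.0, 47.7 and 94.8 CPM in CONT. Its ET values were 60.7, 102 and 123. CONT replicate 3 lay inside the ET range, and within either set the ET libraries were the higher ones. The log2 fold change was 0.64 ± 0.39 over all libraries (adjusted p 0.629) and 0.35 ± 0.14 with a term for the set. The gap between the sets was wider than that between the groups. Set 2 was 1.10 (log2) above set 1 among CONT libraries and 0.89 among ET libraries. The medians over all genes were -0.0088 and -0.0059. A median gives no spread, so how common such gaps are was not tested.

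Foxo4, the X-linked factor, had 35.5, 38.3 and 42.5 CPM in CONT and 38.6, 49.0 and 53.4 in ET. ET replicate 1 lay among the CONT values and the other ET libraries lay above them. Its log2 fold change was 0.28 ± 0.16 (adjusted p 0.623), and 0.17 without ET replicate 3. In TPM, which carries no TMM scaling, Foxo4 ran from 10.6 to 14.9 in CONT and from 15.2 to 17.6 in ET and so did not overlap, as did Foxo1, Fbxo30 and Cblb. TPM placed 12.3% of all tested genes in that pattern, and its median log2 fold change over all genes was 0.15 on the log2(TPM + 1) scale, against 0.014 in the edgeR fit.

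Fbxo32, the F-box subunit of the SCF ligase atrogin-1, whose reported substrates include calcineurin, had 54.9, 65.7 and 111 CPM in CONT replicates 1 to 3. In ET it had 81.8, 199 and 235. ET replicates 2 and 3 were the highest libraries, and ET replicate 1 was above CONT replicates 1 and 2 and below CONT replicate 3. Means were 77.3 ± 29.9 and 172 ± 80.3 CPM (SD, n = 3 per group), and the log2 fold change of 1.16 ± 0.43 is a fold of 2.23 (adjusted p 0.541, edgeR). ET libraries were above CONT by a log2 ratio of 0.44 within set 1 and of 0.97 within set 2. Set 2 was above set 1 by 0.88 among CONT libraries and by 1.41 among ET libraries. With the set term the log2 fold change was 0.70 ± 0.18, with an unadjusted p of 0.00729 and an adjusted p of 0.420 in edgeR.

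Trim63, the RING ligase MuRF1 that marks thick filament proteins and troponin I, had 97.3, 104 and 169 CPM in CONT. The ET values were 110.5, 210.3 and 348. ET replicate 3 alone was above 300 CPM, and ET replicate 1 was close to the lower CONT libraries. ET replicate 3 also had the highest sums of 6 neutrophil markers (93.5 TPM against 1.75 to 17.3) and of 6 hepatocyte markers (48.1 against 0.170 to 4.30), all 12 higher in the ET mean, and their part in the result was not tested. Its log2 fold change was 0.85 ± 0.43 (adjusted p 0.585), and 0.38 without ET replicate 3. The log2 ratio was 0.13 within set 1 and 0.73 within set 2, and the set term gave 0.43 ± 0.25 (unadjusted p 0.138, edgeR).

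Trim55, which binds titin and the M-band region and shares roles with Trim63, had 27.3, 30.9 and 53.6 CPM in CONT and 24.5, 42.5 and 42.3 in ET. CONT replicate 3 was the highest library and ET replicate 1 the lowest. The log2 fold change was -0.033 ± 0.32 (adjusted p 0.981). Within each set the ET level was lower, with log2 ratios of -0.25 and -0.34, and the set term gave -0.29 ± 0.11 (unadjusted p 0.0343, adjusted p 0.465 in edgeR). Scaled by library totals only, the pooled value turned to 0.030, and without CONT replicate 3 it was 0.34, so it has no settled direction.

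Fbxo30 had 9.50, 11.3 and 14.1 CPM in CONT and 12.8, 14.5 and 19.2 in ET. The groups overlapped by CONT replicate 3 and ET replicate 1, and the log2 fold change was 0.41 ± 0.21 (adjusted p 0.585) and 0.22 without ET replicate 3. Its effective length moved as well: 4397, 4994 and 4392 bases in CONT and 4353, 3821 and 3639 in ET. All ET libraries lay below all CONT libraries, and the mean ratio of 0.857 was at percentile 1.6 of 9387 genes with a mean count of at least 200. The annotation holds 2 protein-coding transcripts of Fbxo30, of 2492 and 5060 bases, and the effective length falls as more of the reads are assigned to the short one. The ratio of set 2 to set 1 was 0.862, at percentile 2.9. Among the other tested genes the highest and lowest effective length differed by 1.10 times at most, in Cblb.

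Fbxo40 had 105, 109 and 148 CPM in CONT and 67.0, 121 and 181 in ET. ET replicate 1 was the lowest library and ET replicate 3 the highest, so that the ET libraries enclosed the CONT values. The log2 fold change was 0.028 ± 0.35 (adjusted p 0.985). It was -0.67 within set 1 and 0.030 within set 2, and -0.36 without ET replicate 3, so this gene has no direction either.

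Cblb, a RING ligase that targets IRS1 in unloaded muscle and is also known as a brake on T cells, had 10.7, 11.8 and 14.1 CPM in CONT. The ET libraries had 15.4, 18.5 and 17.7. Each ET library lay above each CONT library, and the means were 12.2 ± 1.79 and 17.2 ± 1.64 CPM (SD, n = 3 per group). The log2 fold change was 0.50 ± 0.15 (unadjusted p 0.0136, adjusted p 0.515 in edgeR), with ratios of 0.46 and 0.36 in the sets and 0.41 ± 0.11 with the set term. The 6 T and B lymphocyte markers summed to 0.450 to 0.870 TPM in CONT and 0.120 to 0.690 in ET, and none of the 6 was higher in the ET mean.

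**Figure D2:**
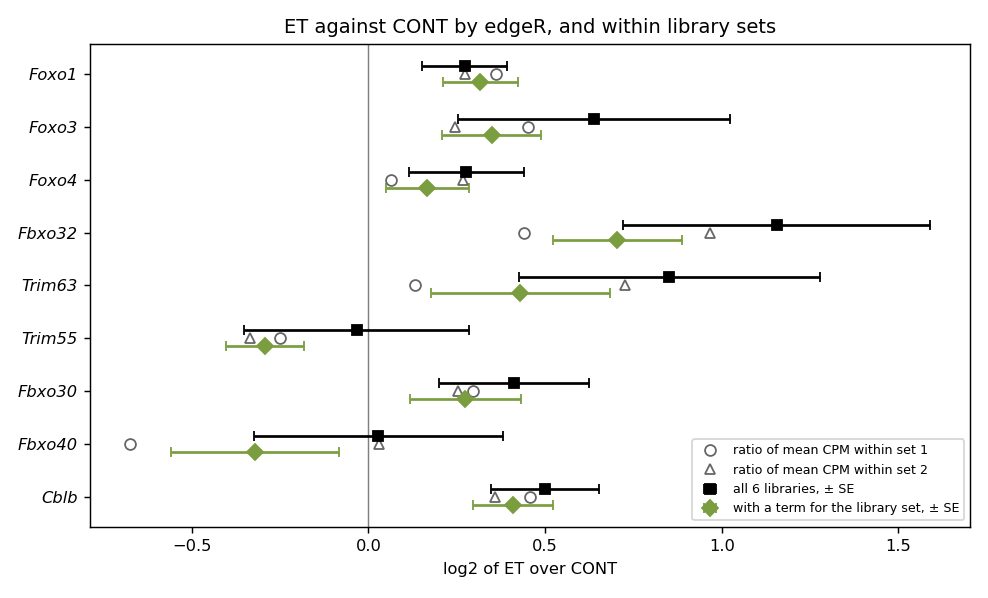
Log2 ratio of ET over CONT (horizontal axis) for the 9 tested genes from all 6 libraries (squares, ± SE), with a term for the library set (diamonds, ± SE), and as ratios of mean CPM within set 1 (circles) and set 2 (triangles). Fbxo32 stays right of 0 in each estimate, from 0.44 to 1.16, while Trim55 lies left of 0 in each of these (0.030 with library totals only) and Fbxo40 ranges from -0.67 to 0.030.

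With the set term, 5 of the 9 genes had an unadjusted p under 0.05, 4 higher (Foxo1, Foxo3, Fbxo32 and Cblb; 5.32% of all genes) and 1 lower (Trim55; 4.72%). None passed over all genes (lowest adjusted p among them 0.420, edgeR). The sets were drawn from these same libraries with earlier results known, so the p-values with the set term are not an independent test. The ratio of ET to CONT was above 1 within both sets for 7 of 9 genes, all but Trim55 and Fbxo40, against 26.4% of all genes. Each within-set ratio rests on 1 ET library in set 1 and 1 CONT library in set 2.

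Leaving out libraries changed some calls. Without CONT replicate 3 and ET replicate 1 together, where group and set coincide and cannot be told apart, edgeR called Fbxo32 (log2 fold change 1.87, adjusted p 0.0126) and Foxo3 (1.36, adjusted p 0.0168). It also called Trim63 (1.49, adjusted p 0.0334) and Cblb (0.72, adjusted p 0.0424), with 3.37% of all genes called higher. DESeq2 without CONT replicate 3 called Fbxo32 (1.53, adjusted p 0.0320) and Foxo3 (1.12, adjusted p 0.0475), with 1.44% of all genes called higher. DESeq2 without ET replicate 1 called Fbxo32 (1.51, adjusted p 4.38e-04) and Trim63 (1.19, adjusted p 0.0138), with 1.66% called higher. Without CONT replicate 3 all CONT libraries left are of set 1, and without ET replicate 1 all ET libraries left are of set 2. Group and set are therefore partly mixed in these DESeq2 fits too.

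The genes did not vary alike across libraries. Range over the 6 libraries, as a difference in log2 CPM, was widest in Fbxo32 (2.10), Trim63 (1.84), Foxo3 (1.58) and Fbxo40 (1.43), and narrowest in Foxo1 (0.45) and Foxo4 (0.59). ET replicate 3, the library high in neutrophil and hepatocyte markers, was the highest for 6 of the 9 genes and CONT replicate 1 the lowest for 6. The shares of all genes with their extremes in these libraries were not computed. Profiles were compared around each gene's own mean, by the mean absolute difference in log2 CPM over the 6 libraries. This measure is not scaled by range, so genes of narrow range tend to lie close and a narrow and a wide one far apart. The closest pairs were Foxo4 and Fbxo30 (0.126), Foxo4 and Cblb (0.129) and Fbxo30 and Cblb (0.140), followed by Fbxo32 and Trim63 (0.182) and Foxo3 and Trim63 (0.189). Foxo1 and Fbxo32 differed by 0.707, the widest gap between any 2 of the 9.

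**Figure D3:**
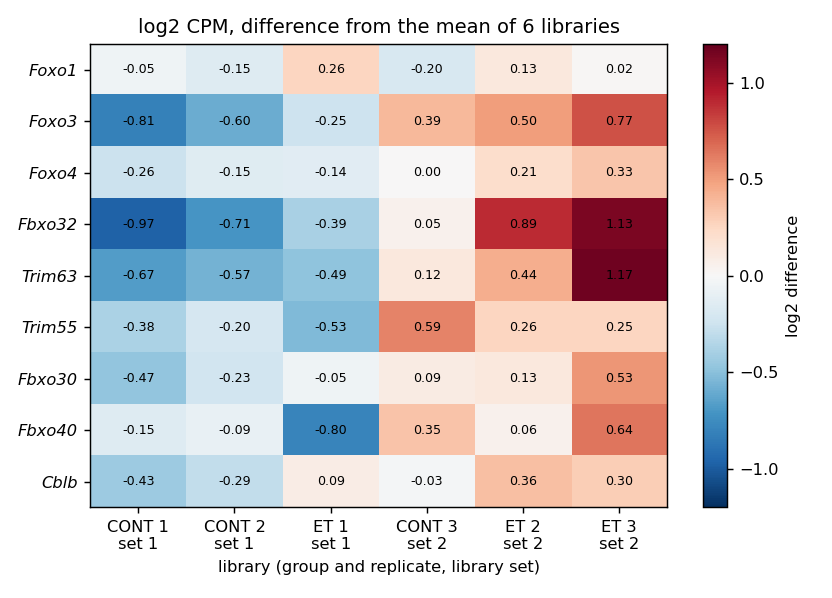
Log2 CPM of each gene (rows) in each library (columns, ordered by library set and group) relative to its own 6-library mean, with red for higher and blue for lower values. In 7 of the 9 genes, the 3 set 2 libraries are above the gene's mean and the 3 set 1 libraries below it. The exceptions are Foxo1 and Cblb, and the gap is small in Foxo4 (0.0028 in CONT replicate 3). The share of all genes with this split was not computed. Foxo1 is highest in ET replicate 1 (0.26).

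Ratios within a library do not depend on its scaling, and 3 of them were tested with an exact two-sided permutation test, whose smallest possible p with 3 libraries against 3 is 0.10. The TPM ratio of Trim63 to its paralog Trim55 was 4.96, 4.67 and 4.35 in CONT and 6.43, 6.85 and 11.03 in ET. All ET libraries were higher (log2 difference 0.76, exact permutation p = 0.1, adjusted over the 3 ratios 0.15), and the difference was 0.42 within set 1 and 0.999 within set 2. The ratio of Trim63 to Fbxo32 was 6.76, 6.06 and 5.81 in CONT and 5.27, 4.04 and 5.64 in ET. All ET libraries were lower (log2 difference -0.33, exact permutation p = 0.1, adjusted 0.15), and within the sets the differences were -0.28 and -0.28. Foxo1 to Foxo3 had ratios of 0.416, 0.331 and 0.163 in CONT and 0.346, 0.189 and 0.144 in ET, with overlap (log2 difference -0.42, exact permutation p = 0.5). This ratio followed the sets: it was lowest in the 3 libraries of set 2.

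**Figure D4:**
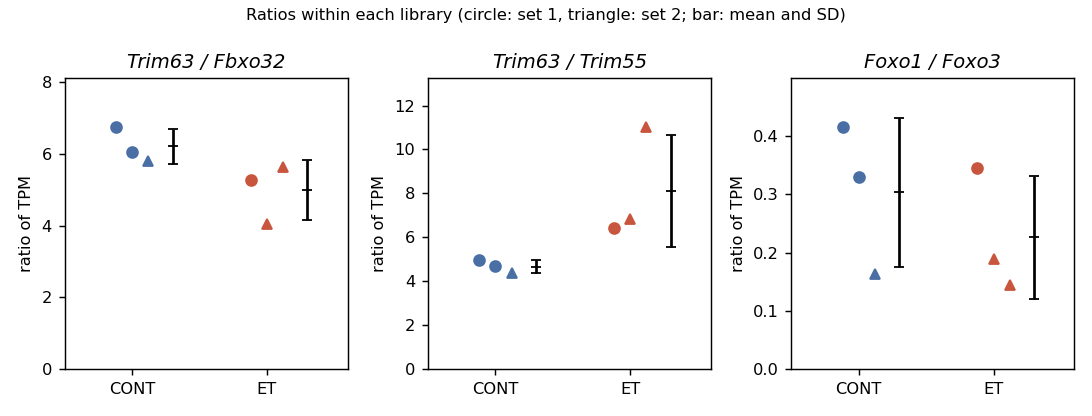
TPM ratios of Trim63 to Fbxo32, Trim63 to Trim55 and Foxo1 to Foxo3 (vertical axes from 0) in each library, with circles for library set 1, triangles for set 2, and bars for the mean and SD of 3 libraries. The Trim63 to Trim55 ratio is 4.35 to 4.96 in CONT and 6.43 to 11.03 in ET, while Foxo1 to Foxo3 splits by set.

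Other genes of the pathway were described by lists that leave the 10 genes out, and in each of them 0 genes passed over all genes in edgeR. Some genes are in more than 1 list, so the counts of the lists are not separate. Insr, Irs2, Pik3ip1 and Rictor count both upstream of FoxO and as targets. Klf15 and Tsc22d3 count both as targets and around the glucocorticoid receptor. For reading the counts, 51.9% of all genes had a log2 fold change above 0, 4.19% were higher and 4.46% lower at an unadjusted p under 0.05, and 26.4% were higher within both library sets. Of 33 tested FoxO targets, 30 were higher and 3 lower, with a median log2 fold change of 0.39 against 0.014 over all genes, and 9 had an unadjusted p under 0.05, all higher. Within both sets 22 of the 33 were higher, and without ET replicate 3 the count was 24 higher and 9 lower, with a median of 0.27. Cdkn1a, the cell cycle inhibitor p21, had 11.8, 21.5 and 15.6 CPM in CONT and 33.0, 40.6 and 55.1 in ET (log2 fold change 1.40 ± 0.28). Gabarapl1, which builds autophagosomes, had 0.89 ± 0.19 and Txnip, which restrains glucose uptake, had 1.11 ± 0.25. The ET libraries were above the CONT libraries in these 3 genes, which were named for their low p. That pattern was found in 10 of the 33 targets and in 6.89% of all genes. Of the exon bases of Cdkn1a, Gabarapl1 and Txnip, 7.68%, 28.3% and 19.4% lie opposite another gene.

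Upstream of FoxO, 19 of 22 genes of the insulin, IGF and AKT arm had a positive log2 fold change (median 0.30), and 12 of the 22 were higher within both sets. At an unadjusted p under 0.05 there were 2, a share close to that of all genes. These were Igf1r, the IGF-1 receptor (25.2, 21.8 and 27.4 CPM in CONT; 37.4, 34.2 and 31.1 in ET; 0.47 ± 0.14), and Irs1. Irs1, the receptor substrate that Fbxo40 and Cblb mark for degradation, had 2.16, 2.36 and 6.67 CPM in CONT and 6.21, 10.5 and 10.6 in ET (1.28 ± 0.47), with overlap at CONT replicate 3 and 30.9% of its exon bases opposite another gene. Of 26 FoxO partners and modifiers 17 were higher (median 0.10), and Stk4, the kinase MST1 that phosphorylates FoxO factors, had 0.36 ± 0.12 without overlap. Higher in ET without overlap were 4 of the 26, and 6.89% of all genes.

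Of 11 tested genes around the glucocorticoid receptor, 9 were higher, with a median of 0.71 and 6 at an unadjusted p under 0.05, all higher. The receptor gene itself, Nr3c1, was at 48.6 ± 4.41 CPM in CONT and 42.5 ± 1.81 in ET (-0.19 ± 0.13). Ddit4, an inhibitor of mTORC1 signalling, had 33.6, 17.0 and 41.8 CPM in CONT and 66.6, 62.1 and 87.5 in ET (1.22 ± 0.33). Fkbp5, a chaperone partner of the receptor, had 14.1, 40.3 and 47.4 in CONT and 71.9, 105 and 106 in ET (1.48 ± 0.43), and Hsd11b1, which regenerates active glucocorticoid, had 1.03 ± 0.29. The ET libraries lay above the CONT libraries for all 3, which were named for their low p. That pattern was found in 4 of the 11 genes and in 6.89% of all genes.

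In the myostatin and activin pathway 20 of 24 tested genes were higher, median 0.41, and 3 had an unadjusted p under 0.05. ET replicate 1, the library high in fibroblast and macrophage markers, was the highest for 14 of the 24 (share of all genes not computed). Without it 16 of the 25 genes then tested were higher and 9 lower, with a median of 0.068, and within set 2, which does not hold it, 13 of 24 were higher. Inhba, an activin subunit, had 1.48, 0.674 and 1.86 CPM in CONT and 9.84, 1.06 and 1.53 in ET, so that ET replicate 1 alone was high, and decorin (Dcn), a matrix proteoglycan, had 902 CPM there against 348 to 442 elsewhere. Bmpr2, a type II receptor for BMPs, had 55.2, 54.8 and 57.3 CPM in CONT and 79.4, 75.5 and 65.5 in ET (0.40 ± 0.14), Smad4, the shared SMAD, had 0.31 ± 0.12 and Inhbb, an activin subunit, 0.94 ± 0.39. These 3 were named for their low p, and their CPM ranges did not overlap between groups. Higher in ET without overlap were 5 of the 24 genes, and 6.89% of all genes. Acvr2b, the activin receptor that binds myostatin, was at 1.94 ± 0.374 CPM in CONT and 2.58 ± 0.411 in ET (0.41 ± 0.26).

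Among 29 other tested muscle ubiquitin ligases 18 were higher and 11 lower, with a median of 0.089, and 2 had an unadjusted p under 0.05, both lower, a share near that of all genes. Without ET replicate 3 the split turned to 12 higher and 18 lower of 30 then tested (median -0.038). The 2 genes were Rnf207 (91.3, 71.5 and 72.3 CPM in CONT; 40.9, 36.3 and 30.7 in ET; -1.12 ± 0.17) and Fbxl22, an F-box protein of the cardiac Z-disc (-0.90 ± 0.32), both without overlap, as were 8.36% of all genes in that direction. Trim54, the third muscle RING finger protein, was at 240 ± 29.5 CPM in CONT and 238 ± 81.2 in ET (-0.013 ± 0.26). Of 21 SCF and E2 partners 15 were higher, with a median of 0.057 and none at an unadjusted p under 0.05, and without ET replicate 3 there were 9 higher and 12 lower.

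Of 17 tested substrates reported for these ligases 7 were higher and 10 lower, with a median of -0.13, and 4 had an unadjusted p under 0.05, 2 in each direction. Of the 17, 6 are also cardiomyocyte markers of the list summed above, which was lower in each ET library than in any CONT library and lowest in ET replicate 1, and all 6 were lower. Without ET replicate 1 the split was 9 higher and 8 lower, with a median of 0.031. The part of cardiomyocyte content was not tested. Tnni3, cardiac troponin I and a Trim63 substrate, had 4489, 5071 and 3942 CPM in CONT and 2844, 3038 and 3032 in ET (-0.60 ± 0.19). Myh7, the slow myosin heavy chain, had 353, 297 and 422 CPM in CONT and 482, 899 and 3273 in ET (2.12 ± 0.68), most of it from ET replicate 3, which was also the highest Trim63 library. Irs1, described above, and Ckm, the muscle creatine kinase (lower), were the others at that level. Of the exon bases of Myh7, 13.3% lie opposite another gene.

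**Figure D5:**
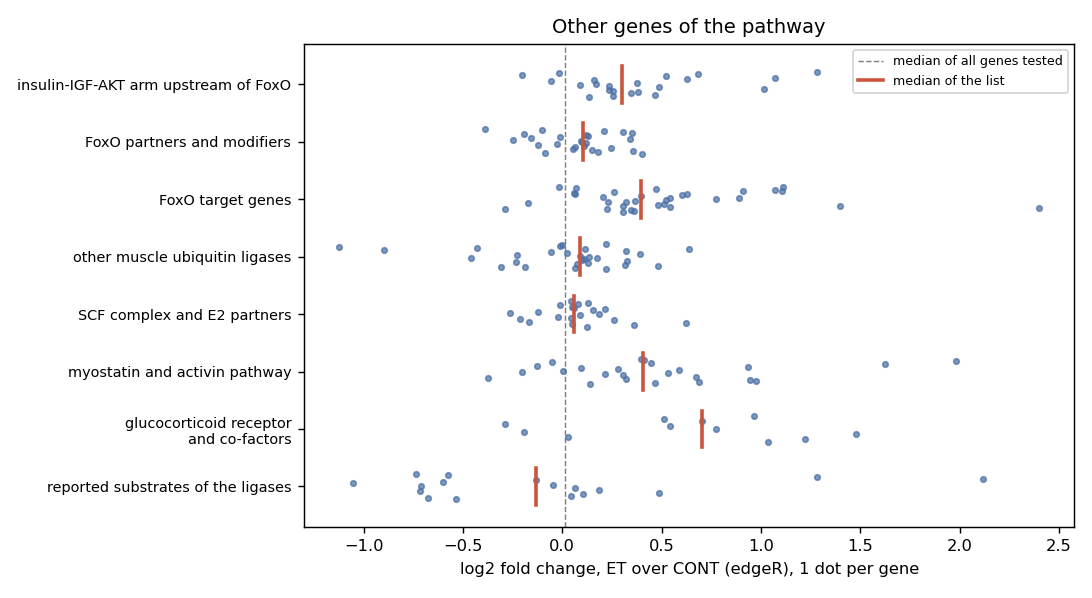
Log2 fold change of ET over CONT by edgeR (horizontal axis) for each tested gene of the 8 pathway lists, 1 dot per gene, with the list median in red and the median of all genes tested as a dashed line. List medians run from -0.13 for reported substrates to 0.71 for the glucocorticoid receptor and its co-factors.

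By a fixed rule, the genes outside the set whose library profiles were most like 3 of its members were named from 9492 genes with a mean CPM of at least 5. The measure was the one used above between members, not scaled by range. For Fbxo32 these were Sesn1, a stress-induced sestrin and FoxO target (mean absolute difference 0.131 over the 6 libraries), Srp54b (0.168, a gene with near-identical copies whose count is uncertain), Klhl38 (0.169), Bnip3, a mitophagy receptor and FoxO target (0.171), and Limd1 (0.174). Klhl38 shares 65.4% of its exon bases and Bnip3 22.3% with a gene on the opposite strand, as do Aldh6a1 (18.6%) and Sec62 (11.7%) below. For Trim63 they included Gpt2, an alanine aminotransferase (0.106), Slc25a16 (0.120), Aldh6a1, which breaks down valine (0.129), and Limd1 (0.129). For Foxo1 they were Ints8 (0.0338), Sec62 (0.0391), Camsap2 (0.0413), Slc17a5 (0.0438) and Rrbp1 (0.0442). All genes named for Fbxo32 and Trim63 were higher in each set 2 library than in any set 1 library, as were Fbxo32 and Trim63 themselves. The share of FoxO targets among the genes ranked was not computed.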

How the data were processed

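STAR 2.7.0f, RSEM 1.2.31 and the mm10 build are named in the labels, per the submitters' processing notes. Sources used here give neither annotation release nor strand setting. The authors deposited expected counts per gene, which were rounded to whole numbers for testing. TPM and FPKM were deposited per library, per the file headers, and effective length is expected count over FPKM, scaled by the library total.

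Genes were kept by filterByExpr (minimum count 10, minimum total 15), scaled with TMM factors (0.920 to 1.19) and compared in edgeR (robust quasi-likelihood, two-sided, no covariates), with Benjamini-Hochberg adjustment over 15727 genes and a threshold of 0.05. SE is the log2 fold change over the root of F. The tests were tried on simulated data. Fits used edgeR 4.0.16 in R 4.3.3, with DESeq2 1.42.0 and limma 3.58.1 as alternatives. Tables were made in Python 3.11.15. The members, gene lists and library sets were chosen with earlier results of these data known. From each list the text names the up to 3 genes of lowest p among those under 0.05 with a mean CPM of at least 1. Other genes named with values (Nr3c1, Acvr2b, Trim54, Inhba, Dcn), and Ckm, were chosen after their values were seen. One gene named by the likeness rule is not reported here. Library sets were split at the midpoint of the Myh6 effective length. Replicates were numbered in order of deposit. The alternatives were other scalings, filters and tools, the set term, and libraries left out.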

Additional observations from a re-analysis of the deposited data

How the results depend on the processing

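The directions of Foxo1, Foxo3, Foxo4, Fbxo32, Trim63, Fbxo30 and Cblb held in all 24 alternatives to the edgeR fit and in both within-set ratios. Over the 24 alternatives, log2 fold changes were 0.70 to 1.87 for Fbxo32, 0.38 to 1.49 for Trim63 and 0.35 to 1.36 for Foxo3. They were 0.17 to 0.49 for Foxo4, 0.20 to 0.44 for Foxo1, 0.22 to 0.79 for Fbxo30 and 0.41 to 0.72 for Cblb. Some within-set ratios were lower than these ranges. In set 1 they were 0.44 for Fbxo32, 0.13 for Trim63 and 0.064 for Foxo4, and in set 2 0.25 for Foxo3 and 0.36 for Cblb.

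Trim55 turned positive with library totals only (0.030), in limma-trend with log2(TPM + 1) (0.17) or log2(TPM + 0.1) (0.19), without CONT replicate 3 (0.34, DESeq2 0.34), without ET replicate 1 (0.20, DESeq2 0.20) and without both (0.56). Fbxo40 turned negative with upper-quartile factors (-0.030), limma-voom (-0.053), the set term (-0.32) and within set 1 (-0.67), and without CONT replicate 1 (-0.061, DESeq2 -0.053), CONT replicate 2 (-0.033, DESeq2 -0.025) or ET replicate 3 (-0.36, DESeq2 -0.35). Without single libraries, Trim55 ran from -0.21 to 0.34 and Fbxo40 from -0.36 to 0.34. The cause was not tested.

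Genes past the threshold numbered 0 in edgeR, 185 in DESeq2, 1 in the log2(TPM + 1) fit, 2 in the log2(TPM + 0.1) fit, and 828 without CONT replicate 3 and ET replicate 1. In edgeR without single libraries they numbered 0 each time. DESeq2 without single libraries, an alternative chosen after seeing the data, gave 23, 36 and 429 (CONT replicates 1 to 3) and 416, 185 and 187 (ET replicates 1 to 3). Members past the threshold were 0, except 4 without CONT replicate 3 and ET replicate 1, and 2 in DESeq2 without CONT replicate 3 or ET replicate 1. The cause was not tested. Leaving out single libraries, 7 to 9 members were higher, and the log2 ratio differences were 0.51 to 0.90 (Trim63 to Trim55), -0.43 to -0.18 (Trim63 to Fbxo32) and -0.81 to -0.14 (Foxo1 to Foxo3). The median of all genes was 0.12 with library totals only and 0.15 and 0.18 in TPM, and 7, 8 and 8 of the 9 members were above it. No paired analysis was possible because the replicate numbers follow the order of deposit. Counts of the pathway lists without single libraries were chosen after seeing the data. Mstn could not be tested at this depth.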
